A study of Sus scrofa with 6 samples.

Results

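The axon guidance ligands and receptors measured here were 55 genes, found by their symbols in the array platform's annotation among 12217 gene symbols with a probe set of their own. They comprised 15 semaphorins, 7 plexins and neuropilins, 8 ephrins, 10 EPH receptors, 6 SLITs and ROBOs, and 9 netrins and UNC5 receptors. Of these, 31 were ligands and 24 were receptors. The genes had 59 probe sets among the 27558 on the array, and where a gene had several, the one with the highest mean level was used. Other genes of these families, such as PLXNA1, NRP2, SLIT3 and UNC5C, were not analysed here.

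RNA was measured in primary cultures of bone marrow mesenchymal stem cells, which adhere to plastic and can form bone. The donors were female pigs of the American Yorkshire breed, 4 months old. The marrow of 3 cultures was taken from the jaw, at the mandibular symphysis, and that of 3 others from the tibia. The cultures were at passage 0, grown to 80% confluence and harvested for total RNA, and the design text names 3 pigs as donors of both kinds of marrow. The sample numbers are not said to mark pigs, so the sites were compared as unpaired groups, and arrays that share a pig are not fully independent. Marrow was plated on plastic without sorting, so that other adherent marrow cells could remain in the cultures.

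Axon guidance genes encode cues that attract or repel a growing cell process, and the receptors that read them. Semaphorins signal through plexins, and most of the secreted class also need a neuropilin. Ephrins are bound to the cell surface and signal to EPH receptor tyrosine kinases on a neighbouring cell, SLITs repel cells through ROBO receptors, and netrins attract through DCC or repel through UNC5 receptors. The same molecules act outside the nervous system. In mouse bone, Sema3a from osteoblasts restrains osteoclast formation through Nrp1, Sema4d from osteoclasts restrains osteoblasts through Plxnb1, and ephrin B2 and EphB4 signal in both directions between osteoclasts and osteoblasts.

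Levels are the authors' RMA values on the log2 scale, so that a difference of 1 is a doubling. Array medians lay between 5.63 and 5.71 and lower quartiles between 3.86 and 3.94. The files carry no measure of detection above background, and levels near or below the lower quartile cannot be told from it. EPHA7 and ROBO2 were below the lower quartile on all 6 arrays, and SEMA3E, SEMA3G, EPHA6 and UNC5D on 3 to 5 of them. With 3 arrays a site, precision is limited by their number.

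THY1 and the mean of the stromal markers were high on every array. Levels of PTPRC and CD34, which should be low in stromal cells, are not given here, so the purity of the cultures was not tested. THY1 lay between 10.50 and 10.70 on the mandibular arrays and between 10.61 and 10.64 on the tibial arrays, and the mean of 10 stromal genes lay between 10.84 and 11.08 in mandibular and between 10.94 and 11.03 in tibial cultures. Single stromal genes were less even than THY1. Of the 10, 5 had a range of 1 log2 unit or more over the arrays, and the site differences lay between -0.71 and 0.52. Of 17 macrophage and monocyte genes, 16 had their highest level on the arrays labelled tibial 1 or tibial 2. The exception was CD86. The mean of that list was 5.16, 6.21 and 5.17 on mandibular 1, 2 and 3, against 8.40, 7.82 and 5.64 on tibial 1, 2 and 3. Its summed level, as a log2 value, lay between 10.63 and 11.04 in mandibular and between 10.81 and 13.37 in tibial cultures. The array labelled tibial 3 and, less clearly, that labelled mandibular 2 resembled the other site. Over all probe sets tibial 3 correlated best with mandibular 3 (r = 0.991) and next with mandibular 1 (r = 0.989), and mandibular 2 correlated as closely with tibial 2 (r = 0.984) as with mandibular 3 (r = 0.983). Mandibular 1 likewise correlated as closely with tibial 3 (r = 0.989) as with mandibular 3 (r = 0.988), so its correlations did not set mandibular 2 apart. The counts, the gene lists and some of the differences are also given without mandibular 2 and tibial 3. Differences given only with 6 arrays could move as well. Without these arrays SEMA4C went from -0.02 to -0.36, EPHB4 from -0.28 to -0.59, EPHA5 from 0.39 to 0.12 and EPHB2 from 0.21 to 0.44.

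No axon guidance gene passed the test between the sites. With limma, 0 of 55 genes had an adjusted p under 0.05, as was the case for 0% of all probe sets, and each had an adjusted p of 0.9995. At an unadjusted p under 0.05 there were 6 genes, against 3.03% of all probe sets. The unmoderated linear model also called 0, with 2 genes at an unadjusted p under 0.05, against 3.08% of all probe sets. Of the 6 genes in limma, NTN4 and PLXNA2 had higher levels in mandibular cultures (1.35% of all probe sets in that direction). The others, EPHA1, PLXNC1, SEMA4A and SLIT1, had higher levels in tibial cultures (1.69%). The median difference, mandibular minus tibial, was 0.0060 over the 55 genes and 0.0041 over all probe sets, with 28 genes above 0 and 27 below, where 51% of all probe sets were above 0. For 7 genes the sites had no overlapping values, against 6.92% of all probe sets. SEMA3A, PLXNA2 and NTN4 were higher in all mandibular cultures (3.35% of all probe sets), and EPHA1, NTN1, SLIT1 and UNC5A were higher in all tibial cultures (3.57%). In a two-sided exact permutation test each of the 7 gave p = 0.1, the smallest value that 3 arrays against 3 allow. Over tibial 1, 2 and 3, SLIT1 and UNC5A fell in the order of the macrophage list mean, and SEMA3A rose in that order. EPHA1, NTN1, PLXNA2 and NTN4 followed neither order. The part of macrophages in the differences of the 7 genes was not tested.

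**Figure D1:**
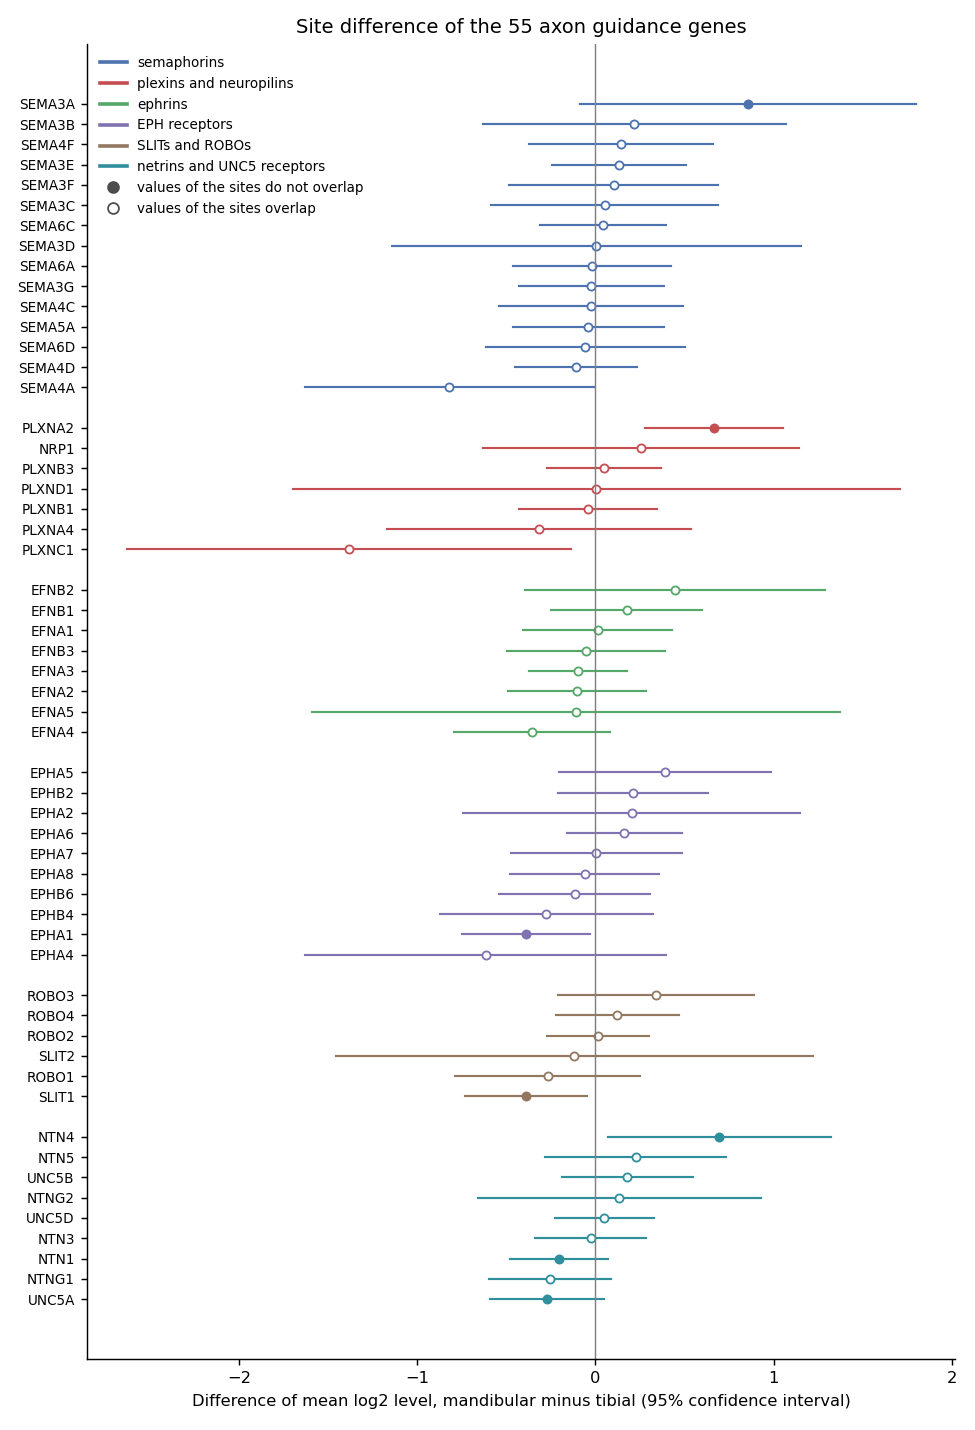
Difference of the mean log2 level, mandibular minus tibial, for each of the 55 genes, grouped by family, with the 95% confidence interval from limma. Filled points mark the 7 genes whose values did not overlap between the sites. Most intervals include 0, and those of PLXND1 and EFNA5 are the widest.

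Among the secreted semaphorins, SEMA3A differed most. SEMA3A, which repels axons and blood vessels, measured 8.39, 8.31 and 8.92 on mandibular 1, 2 and 3, against 6.78, 8.10 and 8.18 on tibial 1, 2 and 3. All mandibular values lay above all tibial values, but tibial 2 and tibial 3 were close to mandibular 1 and mandibular 2, and the low value was that of tibial 1. The difference was 0.86 (SE 0.39, 95% confidence interval -0.09 to 1.80), or 1.81-fold, with means of 8.54 ± 0.33 and 7.69 ± 0.79 (SD, n = 3 each). Without tibial 1 it was 0.40. Tibial 1 was also the array with the highest macrophage list mean and the lowest mean of 11 cell cycle genes, 6.13, where the mandibular arrays had 7.64, 7.73 and 8.57 and the other tibial arrays 6.71 and 8.17. The part of macrophages or of dividing cells in the SEMA3A difference was not tested. In bulk cultures, fewer cells of a type and less RNA per cell cannot be told apart.

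With 6 arrays the other secreted semaphorins did not differ beyond their spread. SEMA3D measured 11.23, 10.08 and 11.37 on mandibular 1, 2 and 3, against 10.01, 11.15 and 11.50 on tibial 1, 2 and 3. The low arrays were mandibular 2 and tibial 1, and the difference between sites was 0.0060 (SE 0.48), or 0.72 (SE 0.38) without mandibular 2 and tibial 3. SEMA3B, which lies in a human tumour suppressor region, ranged from 5.83 to 7.05 in mandibular and from 5.81 to 6.68 in tibial cultures, and differed by 0.22 (SE 0.36). SEMA3C, which guides cardiac neural crest cells in mice, differed by 0.05 (SE 0.27), or by 0.37 (SE 0.18) without mandibular 2 and tibial 3. SEMA3F, a ligand of NRP2, differed by 0.10 (SE 0.25). SEMA3E, the ligand of PLXND1, and SEMA3G were near the lower quartile, with differences of 0.13 (SE 0.16) and -0.02 (SE 0.17). In the RefSeq annotation of Sscrofa11.1, SEMA3D, SEMA3A and SEMA3E are consecutive protein-coding genes and SEMA3C follows after 3 others. The 4 neighbours thus had differences of 0.0060, 0.86, 0.13 and 0.05, with only SEMA3A free of overlap.

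Of the membrane-bound semaphorins, SEMA4A had the lowest mandibular levels relative to tibial ones. SEMA4A, which occurs on dendritic cells and macrophages, measured 5.49, 5.62 and 5.14 on mandibular 1, 2 and 3, against 6.85, 6.35 and 5.51 on tibial 1, 2 and 3. Tibial 1 and 2 lay above all mandibular arrays, whereas tibial 3 lay among them. The difference was -0.82 (SE 0.34), 1.76-fold, with an unadjusted p of 0.048 in limma and an adjusted p of 0.9995. Without tibial 1 it was -0.51. SEMA4D, the ligand of PLXNB1, differed by -0.11 (SE 0.14). The remaining members of this group, SEMA4C, SEMA4F, SEMA5A, SEMA6A, SEMA6C and SEMA6D, had differences between -0.06 and 0.14. Over all 15 semaphorins 8 were higher and 7 lower, and 0 passed.

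PLXNA2, a plexin that pairs with neuropilins for secreted semaphorins and also binds SEMA6A directly, had the smallest p of the 55 genes. It measured 10.20, 10.05 and 9.92 on mandibular 1, 2 and 3, against 9.43, 9.12 and 9.62 on tibial 1, 2 and 3. Every mandibular value lay above every tibial value, with a gap of 0.30 between mandibular 3 and tibial 3. The difference was 0.66 (SE 0.16, 95% confidence interval 0.28 to 1.05), or 1.59-fold, with an unadjusted p of 0.0052 in limma and an adjusted p of 0.9995. The means were 10.06 ± 0.14 in mandibular and 9.39 ± 0.25 in tibial cultures (SD, n = 3 each). With single arrays left out the difference stayed between 0.53 and 0.78.

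NRP1, the neuropilin that binds SEMA3A and also VEGF, measured 8.79, 10.19 and 9.18 on mandibular 1, 2 and 3, against 9.47, 9.14 and 8.78 on tibial 1, 2 and 3. Mandibular 2 stood above all other arrays, and the difference of 0.26 (SE 0.37) turned on it. Without mandibular 2 it was -0.14 (SE 0.25), and without tibial 3 as well it was -0.32 (SE 0.22). Its VEGF receptor partner FLT1, a gene chosen after its values were seen, measured 4.16, 8.14 and 4.91 on the mandibular arrays, against 4.44, 4.26 and 4.36 on the tibial arrays, so that mandibular 2 stood apart there too. The FLT1 difference of 1.38 (SE 0.95) was 0.19 without mandibular 2 and tibial 3. The mean of 12 endothelial genes was 4.99, 5.28 and 4.96 on the mandibular arrays, against 5.24, 5.06 and 4.94 on the tibial arrays. FLT1 is one of the 12, and mandibular 2 was highest only with FLT1 counted, so that mean is no separate evidence. The summed log2 level of that list, FLT1 included, lay between 8.80 and 9.51 in mandibular and between 8.86 and 9.24 in tibial cultures. The part of endothelial cells in the NRP1 level was not tested.

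PLXNC1, the receptor of the membrane-anchored SEMA7A and a gene of myeloid cells, had the largest difference of all 55 genes. It measured 5.93, 6.24 and 5.14 on mandibular 1, 2 and 3, against 7.78, 7.67 and 6.01 on tibial 1, 2 and 3. Tibial 1 and tibial 2 lay more than 1 log2 unit above every other array, and tibial 3 lay within the mandibular range. The difference was -1.38 (SE 0.52, 95% confidence interval -2.63 to -0.14), or 2.61-fold, with an unadjusted p of 0.034 in limma. With single arrays left out it lay between -1.95 (without tibial 3) and -1.07 (without mandibular 3). The 2 arrays with high PLXNC1 and SEMA4A were those with the high macrophage list means given above. They also had the highest means of 12 osteoclast genes, 7.87 and 7.43, where mandibular 1, 2 and 3 had 6.17, 6.74 and 6.22 and tibial 3 had 6.28. The part of macrophages or osteoclasts in these differences was not tested.

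PLXND1, the receptor of SEMA3E, had a wide spread that did not follow the sites. It measured 7.65, 8.82 and 7.26 on mandibular 1, 2 and 3, against 8.97, 8.36 and 6.38 on tibial 1, 2 and 3. The high arrays were tibial 1, mandibular 2 and tibial 2, and the difference between sites was 0.0061 (SE 0.71). PLXNA4, another partner of the neuropilins, measured 6.55, 6.57 and 5.67 on the mandibular arrays, against 7.24, 6.27 and 6.24 on the tibial arrays, with overlap and a difference of -0.32 (SE 0.36). PLXNB1, the SEMA4D receptor, differed by -0.04 (SE 0.16) and PLXNB3 by 0.05 (SE 0.13).

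**Figure D2:**
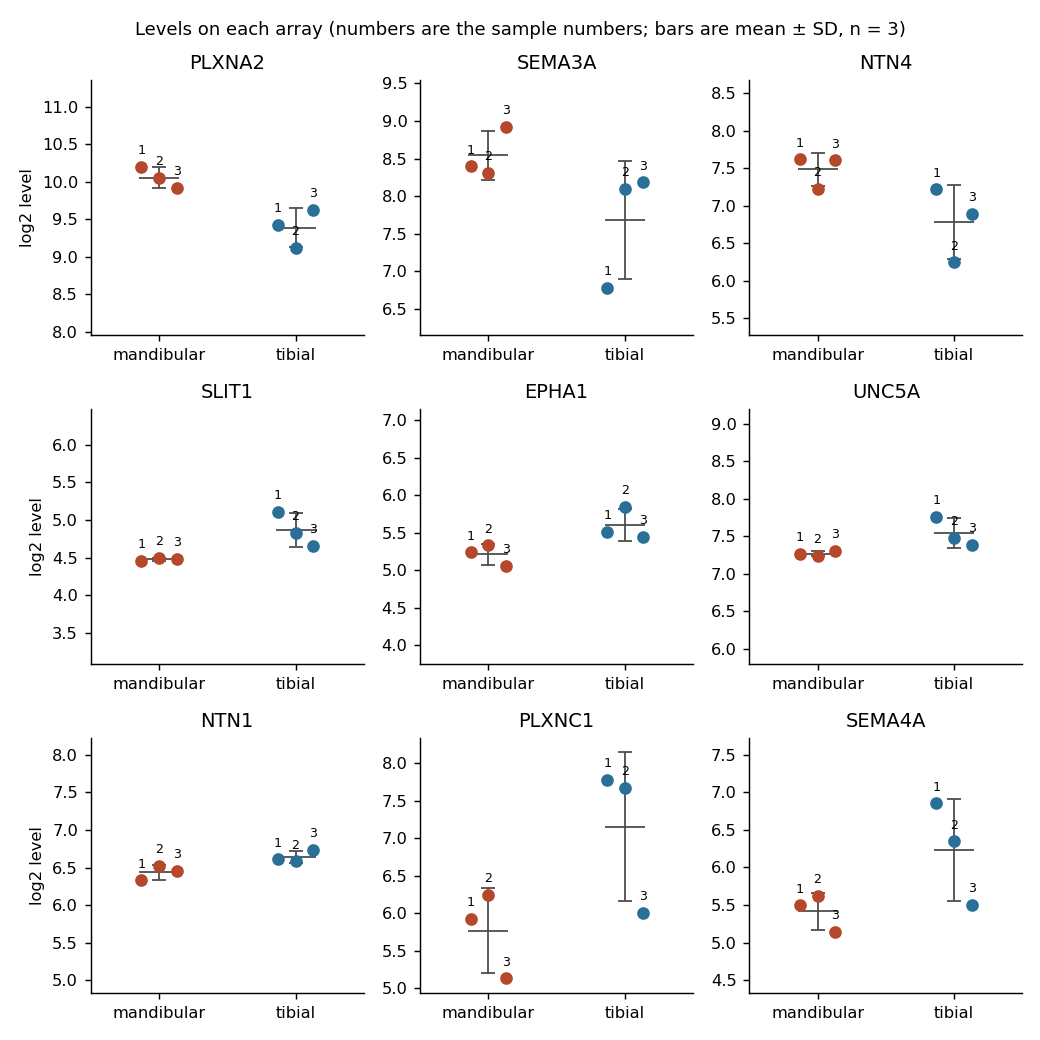
Log2 levels on each array of the 7 genes without overlap between the sites and of PLXNC1 and SEMA4A, with mandibular cultures on the left and tibial cultures on the right of each panel. Points are arrays with their sample number, bars are mean ± SD of 3 arrays, and every panel spans the same number of log2 units. The separation is narrow for NTN4, NTN1 and UNC5A, and tibial 3 lies at the mandibular level for PLXNC1 and SEMA4A.

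Of the 8 ephrins 3 were higher and 5 lower in mandibular cultures, and none separated the sites. EFNA4, an ephrin held in the membrane by a lipid anchor, measured 6.41, 6.47 and 6.20 on mandibular 1, 2 and 3, against 6.85, 6.94 and 6.35 on tibial 1, 2 and 3. Tibial 3 fell within the mandibular values, and the difference was -0.36 (SE 0.18), or -0.59 (SE 0.18) without mandibular 2 and tibial 3. EFNA5, of the same class, measured 6.64, 8.39 and 6.78 on the mandibular arrays, against 8.18, 7.64 and 6.31 on the tibial arrays. As for PLXND1, the high arrays were mandibular 2, tibial 1 and tibial 2, and the sites differed by -0.11 (SE 0.62). EFNB2, a transmembrane ephrin, measured 4.44, 5.44 and 5.78 in mandibular and 4.60, 4.61 and 5.11 in tibial cultures, with overlap and a difference of 0.45 (SE 0.35). EFNB1, mutated in human craniofrontonasal syndrome, differed by 0.18 (SE 0.18). EFNA1, EFNA3 and EFNA4 are consecutive genes in that RefSeq annotation, and the differences of EFNA1 and EFNA3 were 0.01 and -0.10.

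Among the 10 EPH receptors 5 were higher and 5 lower. EPHA1 measured 5.24, 5.33 and 5.06 on mandibular 1, 2 and 3, against 5.51, 5.84 and 5.44 on tibial 1, 2 and 3. The values did not overlap, and the nearest, those of mandibular 2 and tibial 3, were 0.11 apart. The difference was -0.39 (SE 0.15), or 1.31-fold, with an unadjusted p of 0.038 in limma and an adjusted p of 0.9995. EPHA4, which binds ephrins of both classes, measured 7.51, 7.46 and 7.04 in mandibular and 7.70, 8.93 and 7.21 in tibial cultures. The high value was tibial 2, and without it the difference of -0.61 (SE 0.42) was -0.12. Without mandibular 2 and tibial 3 it was -1.05 (SE 0.43). EPHA2, a receptor of EFNA1, ranged from 8.91 to 9.52 in mandibular and from 8.02 to 9.47 in tibial cultures, with its lowest level on tibial 1 and a difference of 0.20 (SE 0.40). EPHB4, the receptor of EFNB2, differed by -0.28 (SE 0.25). The remaining receptors named here overlapped between sites. EPHA5 measured 4.85, 5.23 and 5.14 in mandibular and 5.21, 4.53 and 4.30 in tibial cultures, a difference of 0.39 (SE 0.25). EPHB2 measured 4.54, 3.95 and 4.30 in mandibular and 4.03, 3.94 and 4.19 in tibial cultures, a difference of 0.21 (SE 0.18). Tibial 1 was high for EPHA5 and mandibular 2 low for EPHB2 within their sites. The low EPHA6 measured 3.87, 3.82 and 3.84 in mandibular and 3.58, 3.55 and 3.92 in tibial cultures, a difference of 0.16 (SE 0.13).

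SLIT1 was higher in all tibial cultures, while SLIT2 and the ROBO receptors overlapped. SLIT1 measured 4.45, 4.49 and 4.48 on mandibular 1, 2 and 3, against 5.11, 4.83 and 4.66 on tibial 1, 2 and 3. The mandibular values lay within 0.05 of each other, and the difference was -0.39 (SE 0.14), or 1.31-fold, with an unadjusted p of 0.031 in limma and an adjusted p of 0.9995. SLIT2 measured 8.67, 9.68 and 8.16 in mandibular and 9.93, 8.92 and 8.02 in tibial cultures. Its order over the arrays was that of PLXND1, from tibial 1, mandibular 2 and tibial 2 to mandibular 1, mandibular 3 and tibial 3, and the difference was -0.12 (SE 0.56). ROBO1, a main SLIT receptor, ranged from 9.52 to 9.87 in mandibular and from 9.57 to 10.35 in tibial cultures and differed by -0.27 (SE 0.22). ROBO3, which in mammals has lost high affinity for SLITs, measured 5.07, 4.67 and 4.73 in mandibular and 4.83, 4.60 and 4.03 in tibial cultures. The values overlapped and differed by 0.34 (SE 0.23), and its neighbour ROBO4, a receptor of endothelial cells, by 0.12 (SE 0.14).

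Netrins held a non-overlapping gene in each direction. NTN4, a netrin of basement membranes that binds laminin, measured 7.62, 7.222 and 7.61 on mandibular 1, 2 and 3, against 7.218, 6.25 and 6.89 on tibial 1, 2 and 3. Mandibular 2 and tibial 1 were thus almost equal, and the lack of overlap rests on them. The difference was 0.70 (SE 0.26, 95% confidence interval 0.07 to 1.32), or 1.62-fold, with an unadjusted p of 0.034 in limma, and without tibial 2 it was 0.43. NTN1, the classical netrin, measured 6.33, 6.53 and 6.46 in mandibular and 6.61, 6.58 and 6.73 in tibial cultures, a difference of -0.20 (SE 0.11). UNC5A, a receptor through which netrins repel, measured 7.27, 7.24 and 7.30 in mandibular and 7.76, 7.48 and 7.38 in tibial cultures, a difference of -0.27 (SE 0.13). Both were higher in every tibial culture, by small amounts whose intervals include 0. UNC5B differed by 0.18 (SE 0.15). NTNG1, a netrin held by a lipid anchor, measured 5.01, 4.72 and 4.91 in mandibular and 4.98, 5.08 and 5.34 in tibial cultures, with overlap and a difference of -0.25 (SE 0.14). NTNG2, its closest relative, was highest on mandibular 2 and differed by 0.13 (SE 0.33), or by -0.42 (SE 0.19) without mandibular 2 and tibial 3.

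Genes with several probe sets gave the same picture. The second probe set of NTNG2 differed by 0.03 (SE 0.19) and that of SEMA3E by 0.28 (SE 0.20). PLXNB3 had 3 probe sets, of which 2 repeated the same values and differed by 0.13 (SE 0.15). None of these passed, and each shared the sign of the probe set used.

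Many of these genes had a wide range over the arrays. The highest and lowest array were 1 log2 unit or more apart for 17 of the 55 genes, 30.9% where all probe sets had 16.1% and the probe sets that stand for named genes 14.6%. Tibial 3 held the lowest level for 6 of the 17, where it did so for 16.6% of all probe sets of that range. Mandibular 1 and tibial 1 held the highest for 5 each, or 29.4%, where they did so for 13.5% and 24.9% of all. Each array was then placed by whether its level was closer to the median of the other site or to the mean of the remaining arrays of its own. Mandibular 2 was closer to the other site for 11 of the 17 genes, against 53.9% of all probe sets of that range, and tibial 3 for 13, against 74.8%. On tibial 1 the count was also 11 (43.2% of all), and on mandibular 1, mandibular 3 and tibial 2 it was 8, 6 and 7 (43.4%, 37.1% and 39.1% of all).

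**Figure D3:**
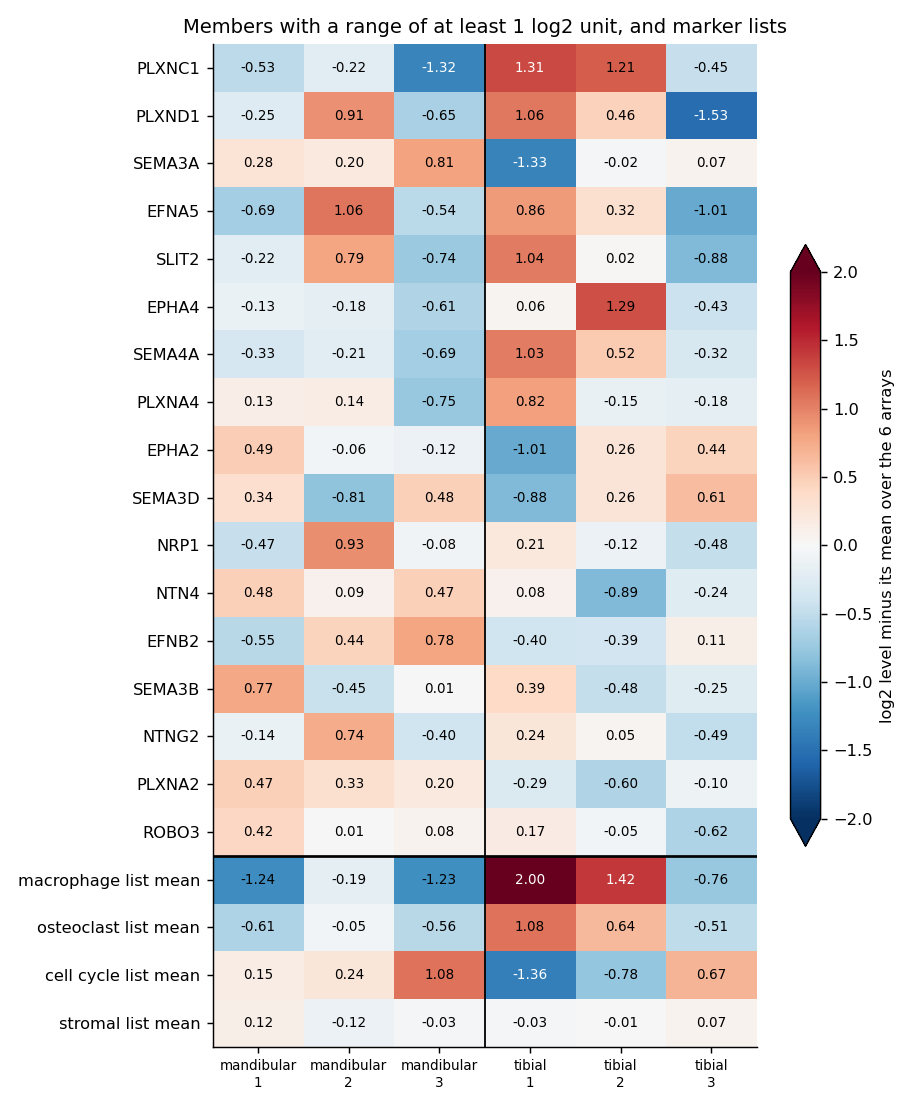
Log2 level on each array minus the mean over the 6 arrays, for the 17 genes whose arrays span 1 log2 unit or more and for the mean level of 4 marker lists. PLXNC1 and SEMA4A are high on the 2 arrays with high macrophage means, tibial 1 and tibial 2, while PLXND1, EFNA5 and SLIT2 are also high on mandibular 2. The macrophage and osteoclast means are next highest on mandibular 2, at -0.19 and -0.05 from their mean over the arrays.

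Leaving out mandibular 2 and tibial 3, which leaves 2 arrays a site, moved the largest of these differences away from 0. These 2 arrays were picked from the same values for their likeness to the other site. Leaving them out therefore tends to widen site differences, and the SE and p-values of this fit do not allow for that choice. PLXNC1 then differed by -2.19 (SE 0.29) with an adjusted p of 0.0504 in limma, close to the threshold, where its adjusted p was between 0.138 and 0.99996 when a single array was left out. SEMA4A differed by -1.28 (SE 0.25), PLXNA2 by 0.78 (SE 0.20), SEMA3A by 1.22 (SE 0.45) and NTN4 by 0.88 (SE 0.33), with adjusted p of 0.127, 0.243, 0.474 and 0.485. PLXND1, EFNA5 and SLIT2, which with 6 arrays differed by about 0, then differed by -1.21 (SE 0.27), -1.20 (SE 0.23) and -1.01 (SE 0.38), with adjusted p of 0.180, 0.132 and 0.474. In that fit 0 of 55 genes passed, where 0.708% of all probe sets did, and 11 genes had an unadjusted p under 0.05, where 9.5% of all probe sets did. Of the 11, 3 were higher in mandibular cultures (NTN4, PLXNA2 and SEMA3A, 4.6% of all probe sets in that direction) and 8 in tibial cultures (EFNA4, EFNA5, EPHA1, PLXNC1, PLXND1, SEMA4A, SLIT1 and SLIT2, 4.9%). With only tibial 3 left out, 10 genes had such a p, against 7.51% of all probe sets, and with only mandibular 2 left out, 4 genes, against 3.19%. The other single omissions left 2 genes without mandibular 1 (3.12% of all probe sets), 1 without mandibular 3 (1.95%), 5 without tibial 1 (3.55%) and 1 without tibial 2 (2.54%), so the count of 6 rests on single arrays. With a single array left out 0 of 55 genes passed, where 0.00363% of all probe sets did without tibial 1, 0.00726% without tibial 3 and 0% without any of the other arrays. In the fit without mandibular 2 and tibial 3, the median difference of the 55 genes was -0.13, against 0.02 over all probe sets. There were 17 genes above 0 and 38 below, where 14816 of 27558 probe sets were above 0. Of the 55 genes, 13 had the other sign than with 6 arrays. In that fit the remaining tibial arrays are those with the high macrophage list means, so the sites and the macrophage genes cannot be told apart.

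**Figure D4:**
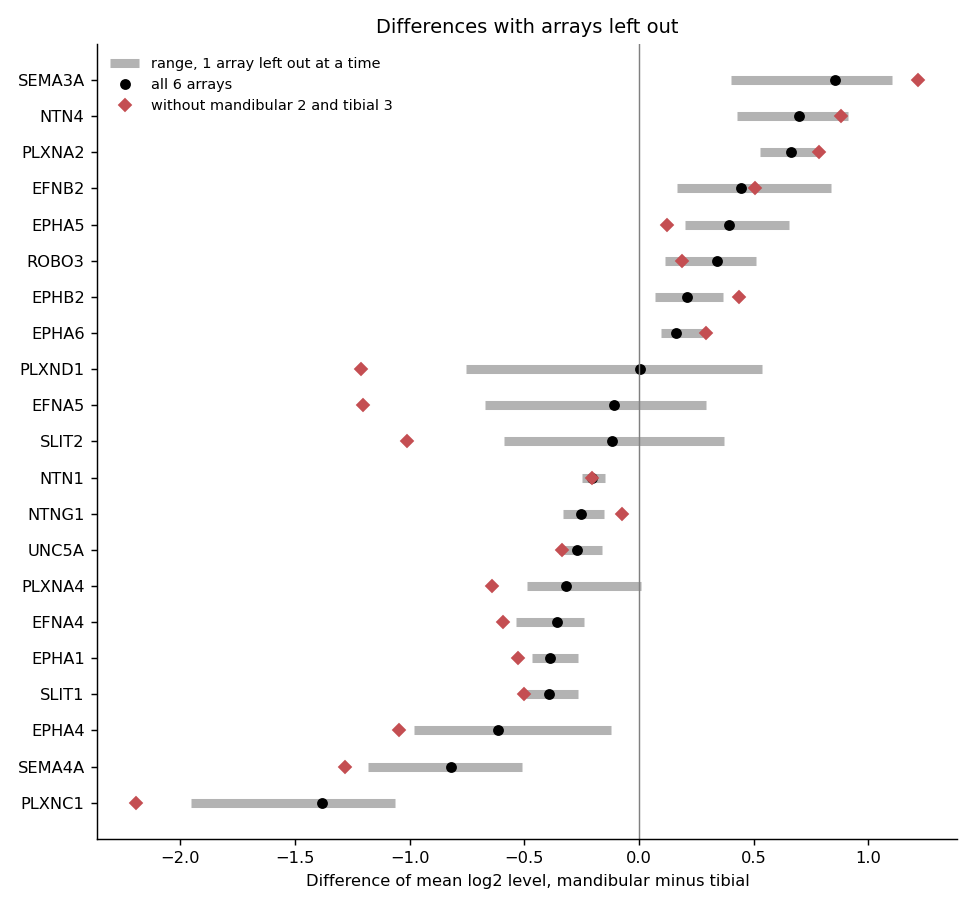
Difference of the mean log2 level, mandibular minus tibial, for 21 genes with all 6 arrays (black points), the range when each array is left out in turn (grey bars), and the value without mandibular 2 and tibial 3 (red diamonds). PLXND1, EFNA5, SLIT2 and PLXNA4 cross 0, while all other genes drawn, PLXNA2, NTN4 and SEMA3A among them, keep their sign.

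Partner genes that act with these families showed no call between sites either. Of 27 semaphorin and plexin partners, 17 were higher and 10 lower in mandibular cultures, with a median of 0.02. Those with the smallest p were TREM2 at -1.17 (SE 0.46) and TYROBP at -2.37 (SE 1.05), a receptor and an adaptor of myeloid cells, and KDR, a VEGF receptor, at 0.45 (SE 0.19). KDR lay between 3.45 and 3.76 in mandibular and between 2.81 and 3.44 in tibial cultures, below the lower quartile. Of 15 ephrin and EPH partners 7 were higher, with a median of -0.04. They included the signalling protein VAV3 at -1.37 (SE 0.44), the chemokine receptor CXCR4 at -1.14 (SE 0.52) and the kinase FYN at 0.47 (SE 0.25). VAV3, CXCR4, TREM2 and TYROBP each had their highest levels on tibial 1 and tibial 2, the arrays with the high macrophage list means, and TREM2 and TYROBP are members of that list.

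Of 13 SLIT and ROBO partners 9 were higher in mandibular cultures, with a median of 0.07. The kinase PAK2 differed by 0.23 (SE 0.12), the exchange factor SOS1 by 0.18 (SE 0.12) and SRGAP2, which binds ROBO1, by -0.29 (SE 0.23). Of 11 netrin and UNC5 partners 9 were higher, with a median of 0.14. DSCAML1, a relative of the netrin receptor DSCAM, measured 6.72, 6.44 and 6.61 on mandibular 1, 2 and 3, against 5.93, 5.93 and 5.61 on tibial 1, 2 and 3, a difference of 0.76 (SE 0.14). BMP4, a growth factor that RGM proteins bind, differed by 0.78 (SE 0.19), and DRAXIN, a repellent that binds DCC, by -0.34 (SE 0.19). The netrin receptor DCC was below the lower quartile on all arrays, with levels from 2.23 to 2.61 in mandibular and from 2.30 to 2.39 in tibial cultures. In limma every partner gene named had an adjusted p of 0.9995. Without mandibular 2 and tibial 3, 15 of 27 semaphorin and plexin partners were higher (median 0.02), as were 7 of 15 ephrin and EPH partners (-0.06), 6 of 13 SLIT and ROBO partners (-0.0052) and 9 of 11 netrin and UNC5 partners (0.19).

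Markers of other cells that could carry guidance genes were compared in the same way, and 0 passed in limma. The Schwann and neural list had 6 of 10 measured genes higher and a median of 0.05. Its named genes were MAG at -0.47 (SE 0.11), MAP2 at 0.52 (SE 0.21) and STMN2 at 0.36 (SE 0.17), and its summed log2 level lay between 8.63 and 8.82 in mandibular and between 8.62 and 8.73 in tibial cultures. The endothelial list had 6 of 12 genes higher and a median of -0.07, with PECAM1 at -0.55 (SE 0.16), ESAM at -0.54 (SE 0.18) and KDR as above. The smooth muscle and pericyte list had 5 of 9 higher and a median of 0.04, with SMTN at 0.35 (SE 0.10), KCNJ8 at -0.48 (SE 0.26) and ABCC9 at -0.79 (SE 0.68). The mean of that list was 7.758, 8.285 and 7.882 on mandibular 1, 2 and 3, against 8.365, 8.030 and 7.695 on tibial 1, 2 and 3. It was thus highest on tibial 1, mandibular 2 and tibial 2, the arrays with high PLXND1, EFNA5 and SLIT2. The part of such cells in the levels of these genes was not tested. The lymphocyte list had 4 of 11 higher and a median of -0.03, with CD4 at -0.78 (SE 0.39), CD79B at -0.21 (SE 0.14) and CD79A at -0.16 (SE 0.13). The macrophage list had 1 of 17 higher and a median of -2.10, with SPI1 at -1.96 (SE 0.69), CD14 at -0.77 (SE 0.29) and ITGAM at -0.33 (SE 0.12). The osteoclast list had 3 of 12 higher and a median of -0.24, the stromal list 4 of 10 and -0.04, and the cell cycle list 11 of 11 and 1.01. Without mandibular 2 and tibial 3 the median was -3.54 for the macrophage list, -0.43 for the osteoclast list, 1.76 for the cell cycle list and -0.05 for the stromal list. It was then 0.15 for the Schwann and neural list, -0.12 for the endothelial list, -0.06 for the lymphocyte list and -0.25 for the smooth muscle and pericyte list, which thus changed sign.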

How the data were processed

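Total RNA of 6 cultures was hybridised to Affymetrix porcine arrays, 1 array per culture. The authors deposited log2 levels of 27558 probe sets, and the submitters' processing notes name RMA, Transcriptome Analysis Console 3.0 and Affymetrix Expression Console. RMA makes the distributions of the arrays' probe intensities equal, so a shift shared by all genes would largely be removed. The medians of the deposited probe set levels still lay between 5.63 and 5.71. The genome build is not given in the sources used here, nor are the settings of RMA.

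Probe sets were named from the platform annotation in GEO: 13157 had 1 symbol, 523 had more, and 13878 had none. Of these symbols, 7 were updated by Entrez number for the partner and marker lists. The 55 genes all had an entry in the RefSeq table of Sscrofa11.1, used only for neighbours. Groups and sample numbers were taken from the titles.

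Mandibular minus tibial differences were fitted with lmFit and eBayes of limma 3.58.1 (R 4.3.3), which was first tested on simulated data. Two-sided p-values were adjusted by Benjamini and Hochberg's method over the whole array of 27558 probe sets, and an adjusted p under 0.05 counted as a call. SE and intervals are limma's. The titles call the samples biological replicates and the design text names 3 pigs, but no label assigns a sample to a pig. The main p-values set each site difference against the moderated spread between arrays within a site, and treat the arrays as independent. The genes and lists were chosen with earlier results of these data known. Genes named are PLXNA2 and SEMA3A, the 8 with the smallest p in each direction, the 8 with the largest range, each family's leading genes by p and range, and 3 per partner or marker list by p. Other genes are given to complete their family. No gene of the osteoclast, stromal and cell cycle lists is named by p, and THY1, CD86, DCC and FLT1 are named outside these rules.

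Alternatives were the sample number as a block, each array left out, mandibular 2 and tibial 3 left out together, median centring, trend and robust moderation, no moderation, array weights, mean levels of at least 4 or 5, and another choice of probe set per gene.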

Additional observations from a re-analysis of the deposited data

How the results depend on the processing

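The count of 0 called axon guidance genes held under every alternative, and their median difference lay between -0.13 and 0.05. Over all probe sets limma called 0 in all fits except without mandibular 2 and tibial 3 together, where it called 195, and in single omissions, where the count lay between 0 and 2 (1 without tibial 1, 2 without tibial 3). PLXND1, whose difference is about 0, changed sign with array weights (-0.0045) and without mandibular 2 and tibial 3 (-1.21), and ranged from -0.76 to 0.54 in single omissions. EFNA5, SLIT2 and PLXNA4 also crossed 0 in single omissions, from -0.67 to 0.29, from -0.59 to 0.37 and from -0.49 to 0.0094. In all, 28 of the 55 genes had differences of both signs over the single omissions, NRP1 (-0.14 to 0.55) and NTNG2 (-0.20 to 0.37) among them. The EPH receptor median was -0.33 among members with a mean level of at least 5, where fewer genes were tested. The cause of the other shifts was not tested.

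With the sample number as a replicate block, 0 of 55 genes and 0 of all probe sets were called, and the smallest adjusted p was 0.876. In that limma fit 8 genes had an unadjusted p under 0.05, where 1511 of 27558 probe sets did. Without the block it was 6 genes and 836 probe sets. Deviations from the site means correlated by -0.03, 0.21 and 0.47 for samples with number 1, 2 and 3. With 3 arrays a site these deviations constrain each other, so the correlations cannot decide whether equal numbers are pairs. The numbers were not taken as pairs because no label says that they mark pigs. Mandibular 1 and 2 correlated best with another number.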
